A study of Danio rerio with 6 samples.

Results

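The FoxA forkhead family of zebrafish was read in blastulas with raised Nodal signalling. Members were all features on the array whose symbol in the platform annotation is *foxa*, *foxa1*, *foxa2* or *foxa3*. They came to 6 features for 4 genes, out of 45220 features and 14434 named genes. *foxa* and *foxa1* each had 2 features, *foxa2* and *foxa3* had 1 each. The samples were whole AB embryos at sphere stage, a blastula stage shortly after the zygotic genome becomes active, with 3 samples injected with 50 pg of *ndr1* mRNA in 1 nl of water (*ndr1*-injected) and 3 injected with 1 nl of water alone (control-injected). *ndr1* encodes a zebrafish Nodal ligand, and no other allele or agent is named in the labels. The labels were followed for both injections, although the injection methods of the study, written for all its experiments, name less *ndr1* and use *egfp* mRNA for controls. About 200 embryos were pooled for each sample, and 1 array was hybridised with each. Injected mRNA can reach every cell of the blastoderm and is not confined to the margin, where Nodal ligands are normally made.

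FoxA proteins are DNA-binding factors of the forkhead class that can open closed chromatin and so allow other factors to bind. In vertebrates they act in definitive endoderm and its organs and in the axial tissues that Nodal signalling specifies, namely prechordal plate, notochord and floor plate. Nodal ligands act through Smad2, which does not bind DNA strongly by itself and is brought to target genes by partners, among them Foxh1, a forkhead protein of another class. The comparison of *ndr1*-injected with control-injected embryos asks how each paralogue responds when the ligand is supplied in excess before gastrulation.

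The Foxh1-type sites that the study's supplementary table lists for Smad2-bound regions near FoxA genes are shown because Foxh1 is the partner through which Smad2 can reach such letters. They are given 5′ to 3′, with the letters that match the Foxh1-type motif AATNNACA in capitals.
*foxa*: ctgAATACACA
*foxa3*: gtgAATACACA
The study looked for potential sites with a position frequency matrix for Foxh1, and its attempts to measure Foxh1 binding did not succeed. The length and core of the sites therefore follow in part from that search. Both sites are 11 bases long and carry the same core. They differ only at the first base, counted from the 5′ end of the *foxa* site, as C1G. No such site was found in the study's listing under the symbols *foxa1* and *foxa2*. Whether it lists a Smad2-bound region without a site near either gene was not examined. The listing of a site is a description of these letters and was not set against the expression values. Probe, promoter and protein sequences were not used here, so the part of each transcript that a feature reads is not known.

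The arrays were alike in overall level, with medians between 8.70 and 8.71 on the log2 scale, and correlated with one another at 0.82 to 0.928 across features. Control-injected replicate 3 stood furthest from the rest, with a mean correlation of 0.856 with the other 5 arrays. The differences of *foxa2* and *foxa1* and the contrasts between paralogues are therefore given with and without it. On the single *ndr1* feature the *ndr1*-injected arrays averaged 14.18 ± 0.58 and the control-injected arrays 10.52 ± 0.39 (log2 signal, SD, n = 3 each). The injected gene thus followed the labels. Its adjusted p in the limma fit over genes was 0.0658, so even the injected gene was not called below 0.05. Since nothing in the labels assigns the samples to separate clutches, p-values cover the spread between samples only, and that spread may be technical. Because whole embryos were pooled, more cells that express a gene and more RNA per cell cannot be told apart.

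*foxa3*, a forkhead gene of early endoderm and of the prechordal plate, had the largest response of the family. It read 14.48, 13.96 and 13.84 in *ndr1*-injected replicates 1, 2 and 3, against 10.98, 10.38 and 10.74 in control-injected replicates 1, 2 and 3 (log2 signal, feature 7580). The groups were far apart, the lowest *ndr1*-injected value lying 2.86 above the highest control-injected value. The group means of 14.09 ± 0.34 and 10.70 ± 0.30 (SD, n = 3 each) were 3.39 ± 0.28 (SE) apart, or 10.5-fold. It passed at an adjusted p of 0.0401 in the limma fit over 14434 genes, where it ranked 2 by p and 6 by size of the difference. This made *foxa3* the only FoxA gene called at an adjusted p below 0.05, 1 of 4 members against a background of 0.0208% of all genes called higher and 0% called lower. The call was lost (adjusted p 0.0814 to 0.363) without any 1 of the 6 arrays, while the difference stayed between 3.20 and 3.53. When all 45220 features were fitted in place of 1 per gene its adjusted p was 0.106.

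*foxa2*, the gene known as axial and expressed in the organizer, the notochord and floor plate precursors and the endoderm, came next. It read 12.09, 12.22 and 12.02 in *ndr1*-injected embryos, against 9.71, 9.08 and 10.65 in control-injected embryos (log2 signal, feature 18749). All 3 *ndr1*-injected values were close together and above all 3 control-injected values, which were spread. The group means of 12.11 ± 0.10 and 9.81 ± 0.79 (SD, n = 3 each) were 2.29 ± 0.40 (SE) apart, or 4.90-fold. *foxa2* did not pass in the limma fit over genes (adjusted p 0.337). It ranked 28 by p and 23 by size of the difference. Control-injected replicate 3 was the highest of its group, and without it the difference was 2.71 ± 0.33 (SE, fit over all features), or 6.55-fold.

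*foxa* is a further paralogue that the study chose from these arrays for *in situ* hybridisation. There the study reported higher *foxa* expression after *ndr1* mRNA injection, already at sphere stage. In mutant embryos without Nodal signalling it detected no *foxa* expression at that stage, and reduced or absent expression later. On the arrays *foxa* was bright in both groups and had a smaller difference. Its brighter feature (44263) read 13.75, 13.17 and 13.33 in *ndr1*-injected embryos, against 12.55, 12.53 and 12.56 in control-injected embryos (log2 signal). The control-injected values almost coincided (SD 0.012) and all lay below the *ndr1*-injected values, by at least 0.61. At 0.87 ± 0.24 (SE), or 1.83-fold, the difference did not pass in the limma fit over genes (adjusted p 0.694). The second *foxa* feature (12927) read 12.95, 12.71 and 12.45 in *ndr1*-injected embryos and 12.37, 11.76 and 11.88 in control-injected embryos. It too had all *ndr1*-injected values on top, but by only 0.08, and a difference of 0.70 ± 0.30 (SE) or 1.62-fold. The 2 features differed in response by 0.17 log2 units, which is less than either standard error, and an exact two-sided permutation test of that gap gave p = 0.5.

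*foxa1*, known for its later expression in endodermal organs, was called in neither direction. Its brighter feature (10705) read 8.23, 8.49 and 8.23 in *ndr1*-injected embryos, against 8.21, 8.31 and 10.49 in control-injected embryos (log2 signal). Of these 6 values 5 lay within 8.21 to 8.49, and only control-injected replicate 3 stood apart. The difference of -0.69 ± 0.60 (SE, adjusted p 0.786 in the limma fit over genes) rested on that value, and without control-injected replicate 3 it was 0.055 ± 0.30 (SE) in the fit over all features. An excess of this size, 1.995 log2 units above all other arrays, was found for 7 features on that array, and for 0 to 18 on each of the others. The second *foxa1* feature (38557) did not show it. That feature read 8.06, 7.63 and 7.95 in *ndr1*-injected embryos and 7.46, 7.87 and 7.44 in control-injected embryos, with overlapping groups and a difference of 0.29 ± 0.29 (SE). Both *foxa1* features were dim, with 44.0% and 30.8% of all features dimmer in *ndr1*-injected embryos, whereas the other 4 FoxA features were brighter than 93.6% to 98.9% of all features there. In control-injected embryos the shares were 59.41% and 17.92% for *foxa1*, the first with the high value of control-injected replicate 3 in it. They were 74.05% for *foxa2*, 82.09% for *foxa3*, and 95.72% and 92.92% for *foxa*. Without detection calls, a *foxa1* feature that gives no signal and a gene that does not respond cannot be told apart.

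**Figure D1:**
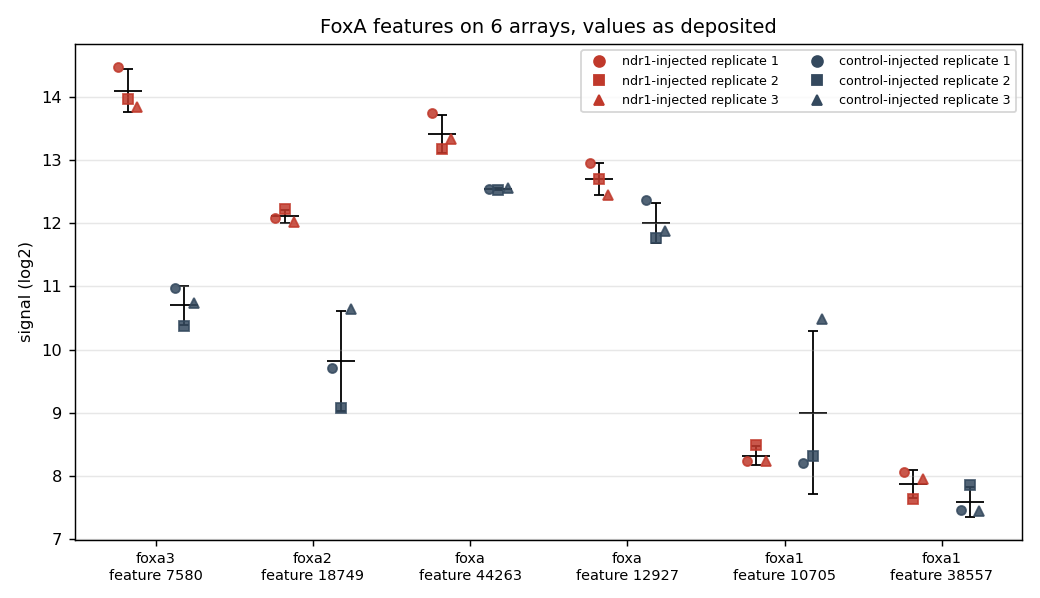
Log2 signal of the 6 FoxA features on each array, with *ndr1*-injected arrays in red left of control-injected arrays in blue, and group means with SD as bars (n = 3 each). The groups are 2.86 log2 units apart for *foxa3* and overlap for both *foxa1* features, where control-injected replicate 3 reads 10.49 on feature 10705.

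Of the 4 genes 3 had all *ndr1*-injected values above all control-injected values, which held for 8.11% of all genes (5.86% the other way round). The same 3 had an unadjusted p of at most 0.02, which 1.72% of all genes reached in that direction and 1.02% in the other. The study also used a p cutoff of 0.02, but its text does not say whether that p was adjusted. Its assignment of probes to genes differed as well. The unadjusted p was 5.56e-06 for *foxa3*, 6.71e-04 for *foxa2* and 0.00810 for *foxa*, and 0.287 for *foxa1* (limma). For a single gene, 3 arrays against 3 cannot give an exact permutation p below 0.1, and *foxa3*, *foxa2* and both *foxa* features reached that value. The exact p was 0.7 and 0.2 for the brighter and the dimmer *foxa1* feature.

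The paralogues were then contrasted with one another. For each of the 6 pairs the log2 difference between both genes was taken on every array and compared between the groups. Only the responses, and not the levels of different probes, were thus set against each other. Level may still enter the contrasts with *foxa1*, because both its features were dim. Responses too can differ between features of 1 gene. They were 2.16 and 3.63 for *sox32* and 2.10 and 0.23 for *sebox*. The *foxa* features differed by 0.17, but the brighter and dimmer *foxa1* features responded by -0.69 and 0.29. The contrasts with *foxa1* used the brighter feature alone. *foxa3* and *foxa2* had 1 feature each, so the part of the probes in their order was not tested. *foxa3* responded more than *foxa2* by 1.10 ± 0.45 log2 units (SE), a response ratio of 2.14, more than *foxa* by 2.52 ± 0.19 and more than *foxa1* by 4.08 ± 0.78. *foxa2* in turn responded more than *foxa* by 1.42 ± 0.49 and more than *foxa1* by 2.98 ± 0.39. The response of *foxa* exceeded that of *foxa1* by 1.56 ± 0.77. In every pair all 9 pairings of an *ndr1*-injected with a control-injected array had this sign. The exact two-sided permutation p was 0.1 for each pair, and 0.1 after Benjamini-Hochberg adjustment over the 6 pairs, the smallest value the design allows, so no pair could pass a threshold of 0.05.

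The neighbours in this order were separated to different degrees. On the values as deposited, the tightest contrast was that of *foxa3* with *foxa*, where the 9 pairings ran from 2.08 to 2.95. Between *foxa2* and *foxa* they ran from 0.25 to 2.50, between *foxa3* and *foxa2* from 0.44 to 2.30, and between *foxa* and *foxa1* from 0.35 to 3.44. Control-injected replicate 3 weighed on every contrast but that of *foxa3* with *foxa*. Without it *foxa3* responded more than *foxa2* by 0.71 ± 0.27 (SE), more than *foxa1* by 3.36 ± 0.41 and more than *foxa* by 2.54 ± 0.25. *foxa2* then responded more than *foxa* by 1.84 ± 0.35, a larger excess than with all arrays, and more than *foxa1* by 2.66 ± 0.28. The response of *foxa* exceeded that of *foxa1* by 0.82 ± 0.31. The excess of *foxa* over *foxa1* was also smaller with position subtracted in a window of 9 by 9, as described next (1.01). It was 0.98 with the mean of all features of each gene. Other arrays weighed on some contrasts as well. The excess of *foxa2* over *foxa1* was 3.32 without control-injected replicate 1. That of *foxa2* over *foxa* was 1.06 without control-injected replicate 2.

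**Figure D2:**
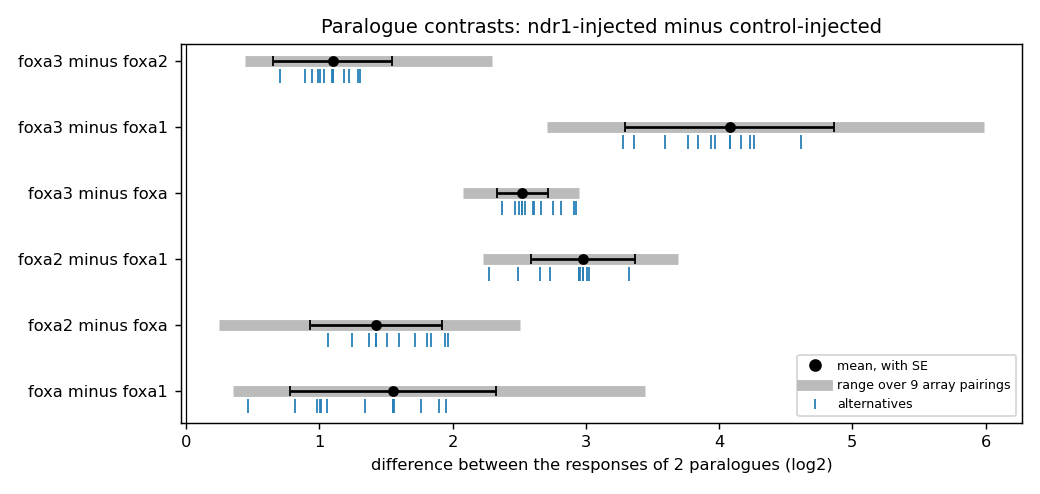
Difference between the responses of the 2 genes of each pair, as *ndr1*-injected minus control-injected log2 values, with the mean and SE as black points and bars, the range over the 9 pairings of arrays in grey, and the values under 15 alternative settings as blue ticks. All 6 contrasts lie above 0, from 1.10 for *foxa3* minus *foxa2* to 4.08 for *foxa3* minus *foxa1*.

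The signal on these arrays also varied with the place of a feature, and this touched the FoxA features unequally. The surroundings of a feature were described by the median deviation, from the median array, of the features in a window of 9 by 9 around it. Around the *foxa2* feature that deviation was 1.12 log2 units on control-injected replicate 3, larger than for 98.1% of features on that array, and -0.61 on control-injected replicate 2. Subtraction of it brought the *foxa2* values to 12.27, 12.24 and 11.98 in *ndr1*-injected embryos and 9.66, 9.69 and 9.53 in control-injected embryos. The SD of the control-injected arrays was then 0.086, in place of 0.79. The difference was 2.54 ± 0.20 (SE), with an adjusted p of 0.00348 in the limma fit over genes, so that *foxa2* passed once position was subtracted, when 0.125% of all genes were called higher.

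The other FoxA features were affected in other ways. For *foxa3* the surroundings deviated by -0.40, 0.45 and 0.19 on control-injected replicates 1, 2 and 3, and subtraction raised the SD of the control-injected arrays to 0.73, in place of 0.30. Its difference was 3.52 ± 0.38 (SE) and its adjusted p 0.0141. The brighter *foxa* feature differed by 0.60 ± 0.23 (SE) after subtraction, with an adjusted p of 0.788 in the limma fit over genes. Its unadjusted p in the limma fit over all features was 0.0328, above the cutoff of 0.02, in place of 0.0151 before subtraction. The second *foxa* feature differed by 0.94 ± 0.45 (SE, unadjusted p 0.0667 in that fit). Its groups then overlapped, with control-injected replicate 1 at 12.93. The excess of *foxa1* feature 10705 on control-injected replicate 3 was still present, at 10.11 after subtraction, where its surroundings deviated by 0.38. With position subtracted the order of the 4 genes was unchanged, but the tightness of the contrasts was not. *foxa3* then responded more than *foxa* by 2.93 ± 0.40 (SE) and more than *foxa2* by 0.99 ± 0.46. The excess of *foxa2* over *foxa* was 1.94 ± 0.18, now the contrast with the smallest SE.

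**Figure D3:**
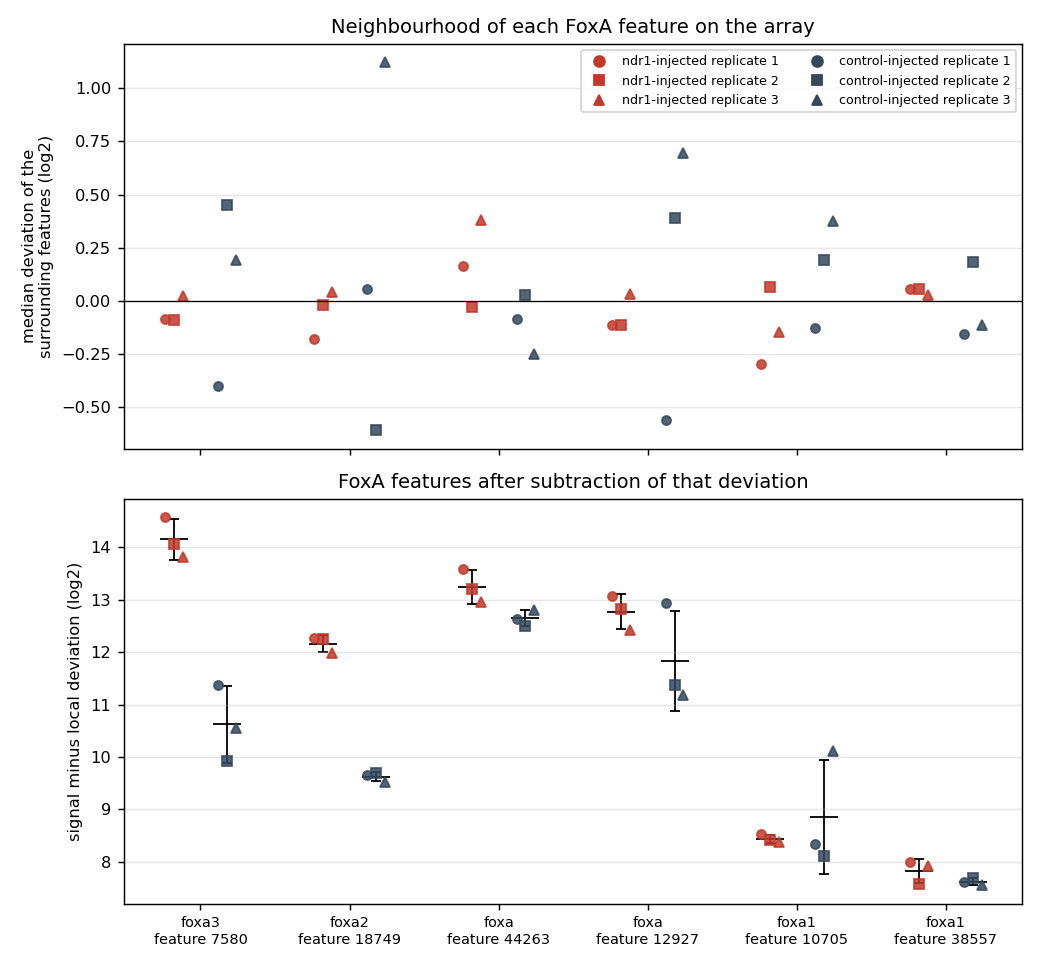
Upper panel, median deviation of the surrounding features (log2) for each FoxA feature on each array, with *ndr1*-injected arrays in red left of control-injected arrays in blue. Lower panel, log2 signal after that deviation was subtracted, with group means and SD (n = 3 each). The *foxa2* surroundings reach 1.12 on control-injected replicate 3, and the control-injected *foxa2* values draw together, to between 9.53 and 9.69, once it is subtracted.

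The genes whose profiles over the 6 arrays lay nearest to each paralogue were found next. Likeness was measured as the root mean square distance between log2 values centred on each gene's mean. Genes chosen in this way share the group difference and any single high array of the paralogue by the choice itself. Their values describe the profiles and are no separate evidence. Nearest to *foxa3* were *gsc*, an organizer homeobox gene (distance 0.27), *mixl1*, a Mix-type homeobox gene of mesendoderm (0.37), and the FGF ligand gene *fgf8a* (0.40). These differed between the groups by 3.24, 2.83 and 2.72 log2 units, and *gsc* was called at an adjusted p of 0.0401 (limma). Nearest to *foxa2* were *nkx2.9*, a homeobox gene of the ventral neural tube (0.28), *pfkfb3*, which encodes a regulator of glycolysis (0.33), and the arginase gene *arg2* (0.33). Their differences were 1.90, 2.25 and 2.68 log2 units, none of them called. The dimmer *pfkfb3* feature differed by only 0.30 ± 0.28 (SE).

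Nearest to *foxa* were *ecm2* (0.094), the purine synthesis gene *ppat* (0.098) and *yeats4*, which encodes a chromatin reader (0.10), with differences of 0.84, 0.69 and 0.81 that were not called and that were 0.15, -0.03 and 0.17 once position was subtracted. Nearest to *foxa1* were *mkxa* (0.18), *cela1.3* (0.20) and *fabp6* (0.21), none called, all with a wide spread among control-injected arrays (SD 1.18, 1.36 and 1.29). In each, as the choice by distance to *foxa1* favours, control-injected replicate 3 stood above every other array, at 9.46, 9.69 and 9.52 (log2 signal). The dimmer features of *mkxa* and *fabp6* differed between the groups by -0.85 ± 0.64 and 0.10 ± 0.33 (SE).

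The other forkhead genes on the array had a median difference near 0. Their list medians per array were 8.79 to 9.17 in *ndr1*-injected and 8.83 to 8.98 in control-injected embryos (log2 signal). Those over all genes were higher, at 9.53 to 9.59 and 9.52 to 9.55. Of 43 measured, 0 were called at an adjusted p below 0.05, and 3 were higher and 0 lower at an unadjusted p of at most 0.02. Their median difference was -0.05 log2 units, beside 0.006 over all genes and 1.58 over the 4 FoxA genes. The 3 were *foxc1a*, a gene of paraxial mesoderm (2.09 ± 0.31, SE), *foxd3*, a gene of the organizer and later the neural crest (1.14 ± 0.33), and *foxj1b*, which belongs to the motile cilia class (0.86 ± 0.28, and 0.21 once position was subtracted). The dimmer *foxd3* feature differed by 0.55 ± 0.73. *foxl1*, a gene of gut mesenchyme, had the next smallest p, with 1.00 ± 0.36 for its brighter feature (0.27 once position was subtracted) and -0.66 ± 0.48 for its dimmer one. *foxh1*, named here for its link to Smad2 after its values had been seen, averaged 11.91 ± 0.28 in *ndr1*-injected and 12.31 ± 0.18 in control-injected embryos (log2 signal, SD, n = 3 each) and did not pass, with an adjusted p of 0.747 (limma).

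Genes tied to the tissues in which FoxA genes act were read as lists. Not all of them are confined to those tissues. The endoderm list includes *eomesa*, for example, which the study describes as not spatially restricted in early development. Its counts and median are therefore not a reading of endoderm markers alone. Of 17 measured endoderm genes 0 were called at an adjusted p below 0.05, while 6 were higher and 0 lower at an unadjusted p of at most 0.02, with a median difference of 0.67. Besides *mixl1*, the Mix-type gene *sebox* (2.10 ± 0.41, SE), the GATA factor gene *gata5* (2.06 ± 0.45) and *sox32*, a Sox gene needed for endoderm (2.16 ± 0.49), were among the 6. Second features disagreed in size, at 0.23 ± 0.34 for *sebox*, 3.46 ± 0.55 for *gata5* and 3.63 ± 0.39 for *sox32*. Of 20 axial mesoderm and prechordal plate genes *gsc* was called, and 11 were higher and 0 lower at an unadjusted p of at most 0.02, with a median of 1.55. That median was 1.01 without *ndr1*-injected replicate 1 and 1.09 with the mean of all features of each gene. The LIM homeobox gene *lhx1a* (4.84 ± 0.50, adjusted p 0.0658) and the T-box gene *tbxta* (2.42 ± 0.28, adjusted p 0.112) stood above or near *foxa2* in size.

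Genes of the later FoxA territory, taken from floor plate, notochord, liver and gut, had a median difference near 0 as well. Of 23 measured, 0 were called, 1 was higher and 0 were lower at an unadjusted p of at most 0.02, and the median difference was 0.01. The 1 gene was *nkx2.9*. The list medians per array were 8.44 to 8.95 in *ndr1*-injected and 8.28 to 8.84 in control-injected embryos (log2 signal). Those over all genes were higher, at 9.53 to 9.59 and 9.52 to 9.55. Without detection calls, genes of this list that give no signal and genes that do not respond cannot be told apart. *shha*, the Sonic hedgehog gene of notochord and floor plate, differed by 0.60 ± 0.26 (SE) on its brighter and -0.50 ± 0.49 on its dimmer feature, and the liver gene *cebpa* by 0.49 ± 0.33 and -0.66 ± 0.56. Of 11 genes for Groucho-type co-repressors and the Smad2 complex 0 were called and only *mixl1* was past the cutoff of 0.02, with a median of -0.13. The Groucho-type genes *tle3a* and *tle3b* differed by 0.80 ± 0.27 and -0.44 ± 0.27, but by 0.31 and 0.09 once position was subtracted.

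**Figure D4:**
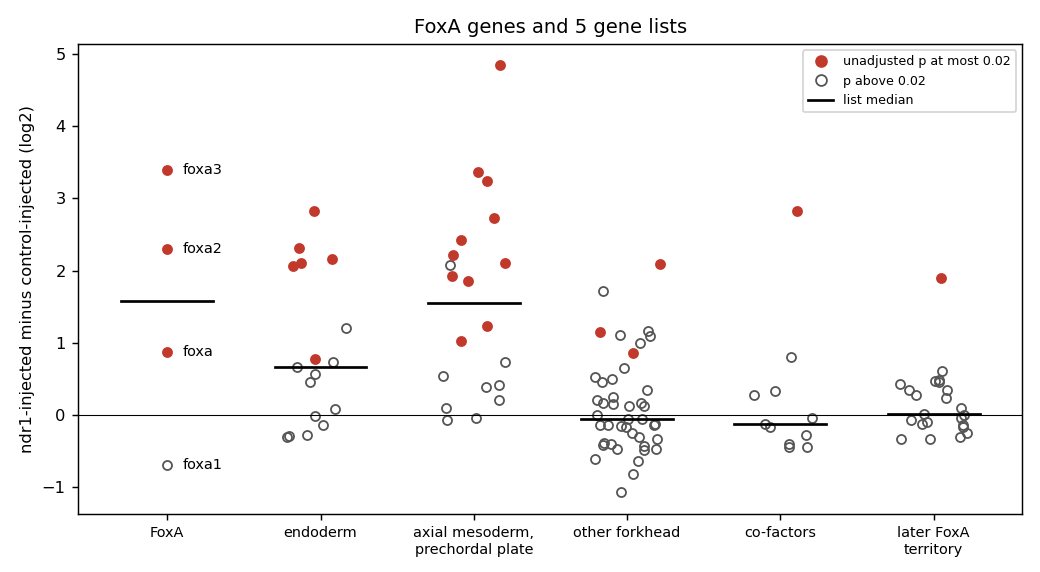
Difference between *ndr1*-injected and control-injected embryos (log2) for the 4 FoxA genes and the members of 5 gene lists, 1 point per gene, filled in red at an unadjusted p of at most 0.02, with the list median as a line. The median is 1.58 for FoxA, 0.67 for endoderm, 1.55 for axial genes, -0.05 for other forkhead genes, -0.13 for co-factors and 0.01 for later FoxA territory.

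Markers of other cells of the whole blastula were read in the same way, beside medians per array over all genes of 9.53 to 9.59 in *ndr1*-injected and 9.52 to 9.55 in control-injected embryos (log2 signal). Enveloping layer genes, which mark the outer epithelium, had list medians per array of 11.04 to 11.75 in *ndr1*-injected and 10.95 to 11.57 in control-injected embryos. Of 17 measured 0 were called, 1 was higher and 0 were lower at an unadjusted p of at most 0.02, and the median difference was 0.08. For 13 yolk syncytial layer genes the medians per array were 9.51 to 10.97 in *ndr1*-injected and 8.88 to 10.17 in control-injected embryos. None was called (0 of 13), and 3 were higher and 1 lower at that cutoff. The median difference was 0.42, and 0.07 to 0.48 over the arrays left out singly. It was 0.07, 0.16 and 0.48 without control-injected replicates 2, 1 and 3, and 0.17 without *ndr1*-injected replicate 1. The 3 higher genes were *gata5*, *gata6* and *sox32*, which are also in the endoderm list and were counted as higher there, so they do not mark the yolk syncytial layer alone. For 19 ectoderm and neural genes the medians per array were 9.74 to 10.90 in *ndr1*-injected and 9.29 to 10.39 in control-injected embryos, with 0 called, 4 higher and 1 lower at that cutoff, and a median difference of -0.006.

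Differences in these lists went both ways, and none passed the adjusted threshold. At the cutoff of 0.02 each list had more genes higher than lower. The keratin gene *krt18a.1* (1.45 ± 0.34, SE), the endodermal and yolk syncytial layer gene *gata6* (2.31 ± 0.56) and the zinc finger gene *zic2a* (1.72 ± 0.28) had positive differences. So did *irx3a* (1.66 ± 0.39) and *her3* (1.82 ± 0.57) of the ectoderm and neural list, *her3* being named after its values had been seen. *evpla* of the enveloping layer list (0.91 ± 0.39) was positive but did not reach the cutoff. A negative difference was found for *anxa1c*, an annexin gene of the enveloping layer list (-0.78 ± 0.36), which did not reach the cutoff either. *sox3*, a Sox gene of early neural ectoderm, was lower as well (-0.73 ± 0.20). All 6 *sox3* features read lower on average in *ndr1*-injected embryos. The 1 yolk syncytial layer gene below the cutoff of 0.02 with a negative difference, named after its values had been seen, was the ferroportin gene *slc40a1* (-1.24 ± 0.30). The part of any change in tissue makeup in the FoxA values was not tested.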

How the data were processed

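RNA from 6 samples of about 200 whole embryos was labelled with an Alexa Fluor dye by the authors and hybridised to 1-colour Agilent zebrafish arrays (V2), which were scanned on an Axon GenePix scanner. The authors normalised the arrays by qspline and deposited log2 values, 1 for every feature of every array. That the scale is log2 was inferred from the range (4.92 to 16.26). The sources used here do not give background correction or detection calls. The values were analysed as deposited.

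Symbols came from the platform annotation and were updated from the GRCz12tu RefSeq table (21061 features, 14434 genes). Groups were taken from the sample titles. The group difference was fitted without covariates in limma 3.58.1 (lmFit, eBayes; R 4.3.3). A gene was read from whichever of its features had the highest mean, with Benjamini-Hochberg adjustment over all genes, or over all 45220 features where stated. SEs are moderated, except those of paralogue contrasts, which come from the spread of per-array differences. Genes were called at an adjusted p below 0.05. The fit and the position subtraction were tested on simulated data. Position subtraction used a grid of 85 columns, inferred from correlations between feature numbers.

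The members and lists were chosen with earlier results of these data known. Named genes are *ndr1*, the members, the 4 other forkhead genes and the 3 genes of each list with the smallest p, of which the text prints some, and the 3 nearest profiles of each member. The *foxred* oxidoreductase genes, which share only the letters of the symbol, were left out of the other forkhead genes. The planned promoter search was not run because promoter sequences were not used here. Precision is limited by the number of arrays.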

Additional observations from a re-analysis of the deposited data

How the results depend on the processing

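All 6 paralogue contrasts kept their sign in all 15 alternatives, as did *foxa3*, *foxa2* and *foxa* in all 18. The *foxa3* call was lost with the replicate block and with all features fitted (both at 3.39, adjusted p 0.282 and 0.106), with position subtracted in a window of 5 (3.50), and without each array in turn (3.20 to 3.53). *foxa2* passed with an intensity trend and robust variance (2.29, adjusted p 0.00859) and with position subtracted in windows of 9, 5 and 15 (2.54, 2.46 and 2.57). Without control-injected replicate 3 and with position subtracted in the window of 9, *foxa2* passed at 2.49 and *foxa3* did not at 3.49 (adjusted p 0.0155 and 0.0591). *foxa1* changed sign without control-injected replicate 3, to 0.055, and to 0.21 with position subtracted as well, with -1.08 to 0.055 as the range over the arrays left out singly.

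The 3 genes called became 27 with the trend, 5 with array weights, 18, 10 and 26 with position subtracted in windows of 9, 5 and 15, 13 with it and without control-injected replicate 3, and 0 with the replicate block, with all features fitted and without each array in turn. At an unadjusted p of at most 0.02 there were 395 genes, 195 to 769 without each array in turn and 1065 features. With position subtracted, *foxa3* minus *foxa* was 2.93 and 2.91 (windows of 9 and 15) and 2.82 (window of 9, without control-injected replicate 3). In this last setting *foxa2* minus *foxa1* was 2.27 and *foxa* minus *foxa1* 0.46, and with the mean of all features *foxa2* minus *foxa1* was 2.49. List medians near 0 had no settled sign without each array in turn (-0.11 to 0.07 for other forkhead genes, -0.32 to 0.17 for co-factors, -0.12 to 0.18 for later FoxA territory, -0.01 to 0.22 for enveloping layer and -0.24 to 0.13 for ectoderm). Same-numbered samples did not deviate together (correlations 0.17, -0.10 and 0.02), and *ndr1*-injected replicate 2 correlated best with control-injected replicate 3, so the block rests on numbers alone. Windows of 5 and 15, and the setting that joins position and the left-out array, were chosen after seeing the data. The causes of these changes were not tested.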
